A study of Rattus norvegicus with 17 samples.

Results

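Dipentyl phthalate (DPeP) at 100 mg/kg/d was compared with its corn oil vehicle in the fetal rat testis, by sequencing of polyA-selected RNA. The comparison uses 6 of the 17 libraries of the series, namely the 3 libraries whose titles give the 100 mg/kg/d dose (replicates 05, 18 and 19) and the 3 whose titles give the vehicle (replicates 01, 08 and 15). All came from wild type Sprague Dawley rats. Pregnant dams received DPeP in corn oil at 100 mg/kg/d, or corn oil alone, by gavage in a volume of 2.5 mL/kg from gestational day 17 to 21, and fetal testes were taken on gestational day 21. Each RNA sample was taken from a single testis, or from 2 testes of a litter that were pooled. The labels do not state that every library came from its own dam. The p-values therefore measure the spread between libraries, estimated per gene over all 17, and not the spread between litters. The other 11 libraries, 3 at 1 mg/kg/d, 3 at 11 mg/kg/d and 5 at 300 mg/kg/d, entered the same fit for the estimate of the spread. Levels are CPM, read counts of a gene scaled so that libraries of different depth can be compared. Values per library are given in the order of replicates 05, 18 and 19 at 100 mg/kg/d and of replicates 01, 08 and 15 in corn oil.

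The fetal testis consists of cords of Sertoli cells that enclose the germ cells, then called gonocytes, and of an interstitium with the Leydig cells. Fetal Leydig cells take up or make cholesterol, move it into mitochondria, and turn it into androgens by a chain of P450 and dehydrogenase enzymes. They also secrete Insl3, the hormone that drives the first phase of testis descent. Phthalate esters with side chains of intermediate length are known in the rat for lowering fetal testosterone production. DPeP, whose side chains are pentyl groups, is a member of this class. In whole tissue, fewer cells of a type and less RNA per cell cannot be told apart.

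Steroid genes are known to be switched on by Nr5a1, a nuclear receptor that binds sites with the core letters AGGTCA. The 250 bases before the RefSeq start sites of 3 genes that fell at 100 mg/kg/d are shown because they belong to successive parts of this system: the first steroid enzyme, its electron donor and the Leydig cell hormone. Capitals mark AGGTCA, or TGACCT where the match lies on the opposite strand, and each line runs 5′ to 3′ on the strand of the gene. On build GRCr8 they lie at chr8:67318415-67318664 (plus strand), chr8:61183646-61183895 (minus strand) and chr16:18432939-18433188 (plus strand).
Cyp11a1: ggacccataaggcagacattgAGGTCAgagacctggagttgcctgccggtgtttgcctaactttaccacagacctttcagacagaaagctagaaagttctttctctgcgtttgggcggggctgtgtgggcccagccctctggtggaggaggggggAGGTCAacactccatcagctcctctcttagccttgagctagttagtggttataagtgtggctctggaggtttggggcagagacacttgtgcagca
Fdx1: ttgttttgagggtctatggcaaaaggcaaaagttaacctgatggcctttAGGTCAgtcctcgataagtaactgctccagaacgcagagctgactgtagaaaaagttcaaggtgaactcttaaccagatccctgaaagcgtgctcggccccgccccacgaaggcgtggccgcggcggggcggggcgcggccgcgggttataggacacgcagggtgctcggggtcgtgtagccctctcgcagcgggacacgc
Insl3: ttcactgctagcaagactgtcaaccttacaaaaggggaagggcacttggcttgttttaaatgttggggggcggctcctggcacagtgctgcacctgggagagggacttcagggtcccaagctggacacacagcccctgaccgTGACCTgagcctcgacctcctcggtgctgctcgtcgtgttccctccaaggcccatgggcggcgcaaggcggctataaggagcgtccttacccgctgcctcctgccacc

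Counted to the first base of the match, AGGTCA lay at -229 and -95 in the Cyp11a1 sequence and at -201 in that of Fdx1, and the opposite-strand match lay at -108 in that of Insl3. Of the 6 androgen synthesis genes that fell, 4 had an upstream sequence in the RefSeq table (Cyp11a1, Fdx1, Fdxr and Por). On either strand, 3 of these 4 held AGGTCA and Fdxr did not. The 3 sequences printed all hold these letters, and those of Fdxr and Por are not printed. The same letters stood in 14.1% of all 33469 upstream sequences of this length. The 7-letter form AAGGTCA, which contains AGGTCA, stood in 3.99% of all and in 0 of the 4. The other motifs searched, on both strands, were TGACGT (6.95% of all), AGATAA (10.3%), TGATAA (7.97%) and CCAAT (34.0%), and none was in the 4. Star, Cyp17a1, Scarb1 and Mrap had no entry in the table. A match of this kind is a description of the letters, not of a binding site.

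The 3 libraries at 100 mg/kg/d were uneven. They held 17551414, 20323488 and 14781634 gene reads, against 15948971, 17920695 and 16398867 in corn oil. Their biological coefficient of variation was 0.233, against 0.134 in corn oil and between 0.116 and 0.131 in the other groups. The fit gives each gene 1 spread for all groups, so it does not carry this wider spread. The p-values at 100 mg/kg/d may therefore be too small. The mitochondrial genome supplied 9.05% and 7.76% of gene reads in replicates 05 and 18. The other 15 libraries of the series ranged over 4.35% to 6.16%, with replicate 19 at 5.26%. Cytosolic ribosomal protein genes took 7.68% and 6.96% in replicates 05 and 18, against 4.32% to 5.53% in those 15 libraries, with replicate 19 at 5.00%. The unevenness also went with gene length. Over the 4504 genes with the least exon sequence, the median log2 ratio to the corn oil mean was 0.265, 0.176 and -0.048 in replicates 05, 18 and 19, and over the 4498 genes with the most it was -0.167, -0.072 and 0.102. The correlation across genes of this ratio with log2 gene length, a description with no test, was -0.268, -0.17 and 0.099 in replicates 05, 18 and 19. Over the other 15 libraries, replicate 19 among them, it ran from -0.216 in corn oil replicate 15 to 0.212 in corn oil replicate 01. Replicate 05 lay outside this range. Each corn oil library was set against the mean of the other corn oil libraries, so its value is not of quite the same measure. Over the exposed libraries of all doses except replicates 05 and 18, the correlation ran from -0.005 to 0.174. Replicates 05 and 18 both lay below that range. The part of these differences in the results was not tested, and the main results are also given without replicates 05 and 18, or without replicate 19. Without replicates 05 and 18 the dose has 1 library, which the fit assumes to vary like the other groups. All 6 libraries carried testis markers, with Amh of Sertoli cells at 1774 to 1989 CPM at 100 mg/kg/d and 1177 to 1634 CPM in corn oil.

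Of 18005 genes tested, 274 (1.52%) were called, which means a p under 0.05 in edgeR's quasi-likelihood test after Benjamini-Hochberg adjustment over all of them. Of these, 185 (1.03% of genes tested) fell and 89 (0.494%) rose at 100 mg/kg/d. Falls of at least 2-fold numbered 64 and rises of at least 2-fold 36. At an unadjusted p under 0.05 there were 3458 genes. Each of the 185 genes that fell was lower in all 3 libraries at 100 mg/kg/d than in every corn oil library. Of the 89 that rose, 79 were likewise apart from corn oil, and in the other 10 replicate 19 lay within the corn oil range. The calls were made from these same libraries, so this separation follows in part from the calling. Over all genes tested, the 3 libraries at 100 mg/kg/d lay below every corn oil library for 7.89% of genes and above every one for 7.14%. The number of calls depended on single libraries. It was 4250 without replicate 19, 162 without replicate 05, 93 without replicate 18, and 94 and 99 without corn oil replicates 01 and 15. Without replicate 19, 2206 of 18316 genes tested were called higher and 2044 lower. List counts given below for that setting are to be read beside these numbers. Without replicates 05 and 18 together, 73 genes were called, 38 of them among the 274.

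**Figure D1:**
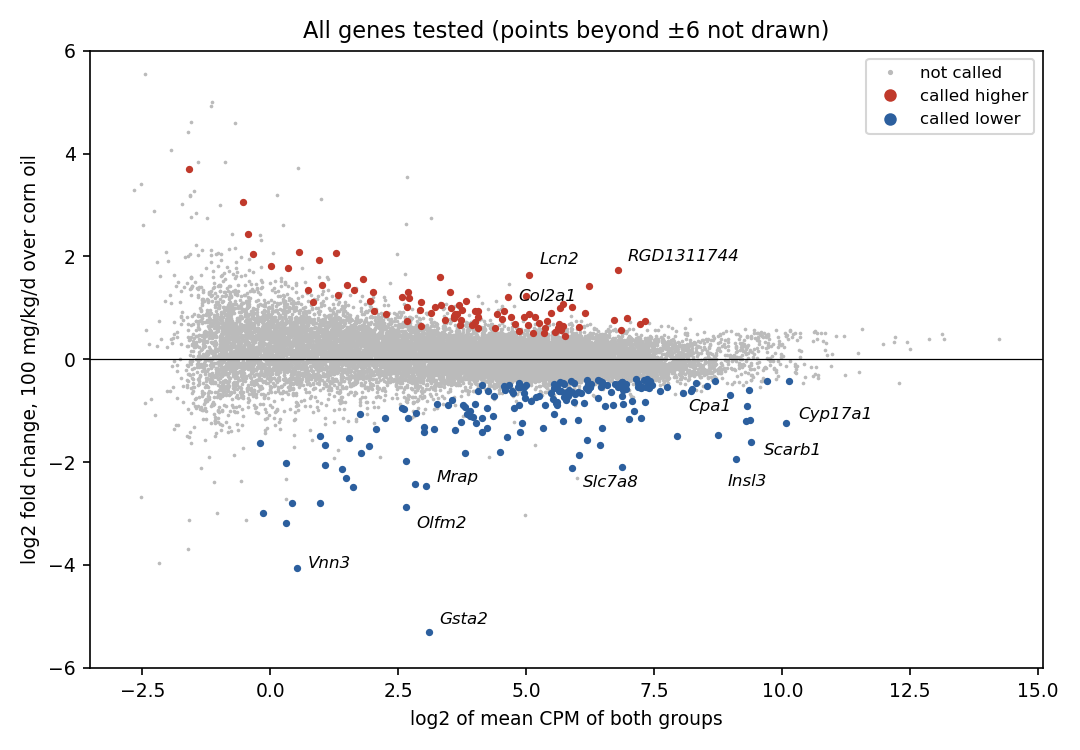
Log2 fold change of 100 mg/kg/d over corn oil (vertical) against the log2 of the mean CPM of both groups (horizontal) for the 18005 genes tested. The 89 genes that rose are red, the 185 that fell blue, and 5 genes beyond 6 log2 units are not drawn. Gsta2, at -5.31, is the lowest called point, and labels mark further genes named in the text.

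Genes of the Leydig cell were the group in which falls were most frequent among the lists examined. The lists were chosen with earlier results of these data known, so this order is a description only. Of 22 Leydig cell markers tested, 12 fell and 0 rose, against 1.03% and 0.494% of all genes. These shares of all genes are also the ones to set beside each list count below. The median log2 fold change of the 22 was -0.76, against 0.05 over all genes tested. Per library, the median of these markers was -0.691, -0.750 and -0.854 relative to corn oil, so replicate 19 lay as low as replicates 05 and 18. The 12 were Insl3, Lhcgr, Prlr, Mrap, Vcam1, Scarb1, Star, Cyp11a1, Fdx1, Fdxr, Cyp17a1 and Nr0b1. Star, Cyp11a1, Fdx1, Fdxr and Cyp17a1 are counted again below as androgen synthesis genes. Lhcgr, Scarb1, Mrap and Nr0b1 are counted again in other lists, so the lists are not separate findings. Over the 16 alternative analyses, between 7 and 17 of the markers were called lower, with 7 without replicates 05 and 18, 17 (with 2 higher) without replicate 19 and 9 without corn oil replicate 01.

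Insl3 had 296.5, 178 and 202.5 CPM at 100 mg/kg/d, against 814, 764 and 1010 CPM in corn oil. All 3 exposed libraries lay far below the lowest corn oil library. The gene (chr16:18384829-18400560 on mRatBN7.2, plus strand) was 3.82-fold lower, a log2 value of -1.93 (adjusted p = 0.000851, SE 0.278). The kit does not mark strand and Insl3 overlaps Jak3 in the annotation, so some of its reads may belong to the neighbour. Lhcgr encodes the receptor for luteinizing hormone, the pituitary signal to Leydig cells. It had 34.6, 27.1 and 63.3 CPM at 100 mg/kg/d, against 174, 109 and 115 CPM in corn oil, a log2 fold change of -1.67 (adjusted p = 0.000935, SE 0.243). Replicate 19 was the highest of the exposed libraries, and without replicates 05 and 18 the value was -1.08 with an adjusted p of 0.0856. Prlr, the prolactin receptor, had 7.83, 4.99 and 7.54 CPM at 100 mg/kg/d, against 24.5, 14.6 and 13.6 CPM in corn oil, and was 2.59-fold lower (adjusted p = 0.0214). Vcam1, a cell adhesion molecule, had 14.1, 7.51 and 8.07 CPM at 100 mg/kg/d, against 26.9, 17.1 and 15.7 CPM in corn oil (log2 fold change -1.01, adjusted p = 0.0472). Prlr and Vcam1 were singled out after their values were seen. Of 32 genes of the luteinizing hormone and cyclic AMP signal, 3 fell and 0 rose, against 1.03% and 0.494% of all genes. Besides Lhcgr these were Gnas, the stimulatory G protein subunit, with a log2 fold change of -0.42 (adjusted p = 0.0471), and Adcy9, an adenylyl cyclase, with -0.62 (adjusted p = 0.0495). Gnas overlaps a second annotated Gnas entry, which makes its count uncertain. Gnas and Adcy9 both lost their call when any 1 of the 6 libraries but replicate 19 was left out, and with the code in the sample titles as a term in the fit. In each of these 1 gene of the list was called lower. Without replicates 05 and 18 there were 0 called lower and 1 higher, and without replicate 19 there were 10 lower and 2 higher.

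Some genes that supply cholesterol to the cell fell, where 1.03% of all genes fell and 0.494% rose. Of 27 genes of cholesterol uptake, storage and export, 4 fell and 1 rose, with 1 and 0 without replicates 05 and 18. Scarb1, the receptor that takes cholesterol from high-density lipoprotein, had 280.2, 334 and 385 CPM at 100 mg/kg/d, against 1236, 842.5 and 972 CPM in corn oil. The groups were far apart, and the log2 fold change was -1.61 (adjusted p = 0.00015, SE 0.198). Nceh1, which hydrolyses stored cholesterol esters, was 2.09-fold lower (adjusted p = 0.00176), and Lipg, endothelial lipase, was 1.85-fold lower (adjusted p = 0.00304). The call was kept in all 16 alternatives for Scarb1, in 15 for Nceh1 and in 14 for Lipg.

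Of 23 androgen synthesis genes tested, 6 fell, 0 rose and 17 were not called, where 1.03% of all genes fell and 0.494% rose. The list did not move as a whole: 10 values lay above 0 and 13 below, with a median log2 fold change of -0.18. In all 3 exposed libraries, 8 genes lay below every corn oil library and 3 above every one. Star, which moves cholesterol to the inner mitochondrial membrane, had 252, 209 and 222 CPM at 100 mg/kg/d, against 549, 659 and 688 CPM in corn oil. Its 3 exposed libraries were close together, and the log2 fold change was -1.47 (adjusted p = 0.000851, SE 0.211). Cyp11a1, the P450 that cleaves the cholesterol side chain, had 408, 379.8 and 429 CPM at 100 mg/kg/d, against 1078, 618 and 1051 CPM in corn oil. Here the spread lay in corn oil, where replicate 08 was lowest, and the log2 fold change was -1.18 (adjusted p = 0.00118, SE 0.174). Fdx1 and Fdxr form the mitochondrial electron chain that serves Cyp11a1. Fdx1, the ferredoxin, had 73.3, 94.4 and 69.1 CPM at 100 mg/kg/d, against 153, 165 and 211 CPM in corn oil (log2 fold change -1.16, adjusted p = 0.00345). Fdxr, its reductase, had 82.6, 75.2 and 95.95 CPM at 100 mg/kg/d, against 155, 127 and 180 CPM in corn oil (log2 fold change -0.86, adjusted p = 0.00154). Cyp17a1, the P450 that turns progestins into androgens, had 772, 618 and 519 CPM at 100 mg/kg/d, against 1641, 1286 and 1584 CPM in corn oil. Replicate 19 was its lowest library, and the log2 fold change was -1.24 (adjusted p = 0.0028, SE 0.205). Por, which passes electrons to Cyp17a1, was 1.49-fold lower (adjusted p = 0.0374); it was named after its value was seen, as the sixth called gene of its list.

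Hsd3b1 and Hsd17b3, which serve the dehydrogenase steps, were not called, and the exposed libraries of each lay on both sides of corn oil. Hsd3b1, which makes progesterone and androstenedione from their precursors, had 1507, 1926 and 726 CPM at 100 mg/kg/d, against 1225, 1155 and 1343 CPM in corn oil. Replicates 05 and 18 lay above all corn oil libraries and replicate 19 below all of them. The log2 fold change of 0.16 (adjusted p = 0.74, SE 0.244) averages these opposite values, and it was -0.79 without replicates 05 and 18 (adjusted p = 0.155). Hsd3b1 belongs to a family of near-identical genes, so its count is uncertain. Hsd17b3, the last enzyme of testosterone synthesis, had 152, 149 and 83.8 CPM at 100 mg/kg/d, against 85.9, 90.4 and 107 CPM in corn oil (log2 fold change 0.44 with SE 0.173, adjusted p = 0.175). Again replicates 05 and 18 were above corn oil, while replicate 19 was just below it. Without replicates 05 and 18, 3 androgen synthesis genes were still called lower, and without replicate 19 there were 9 called lower and 2 called higher.

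**Figure D2:**
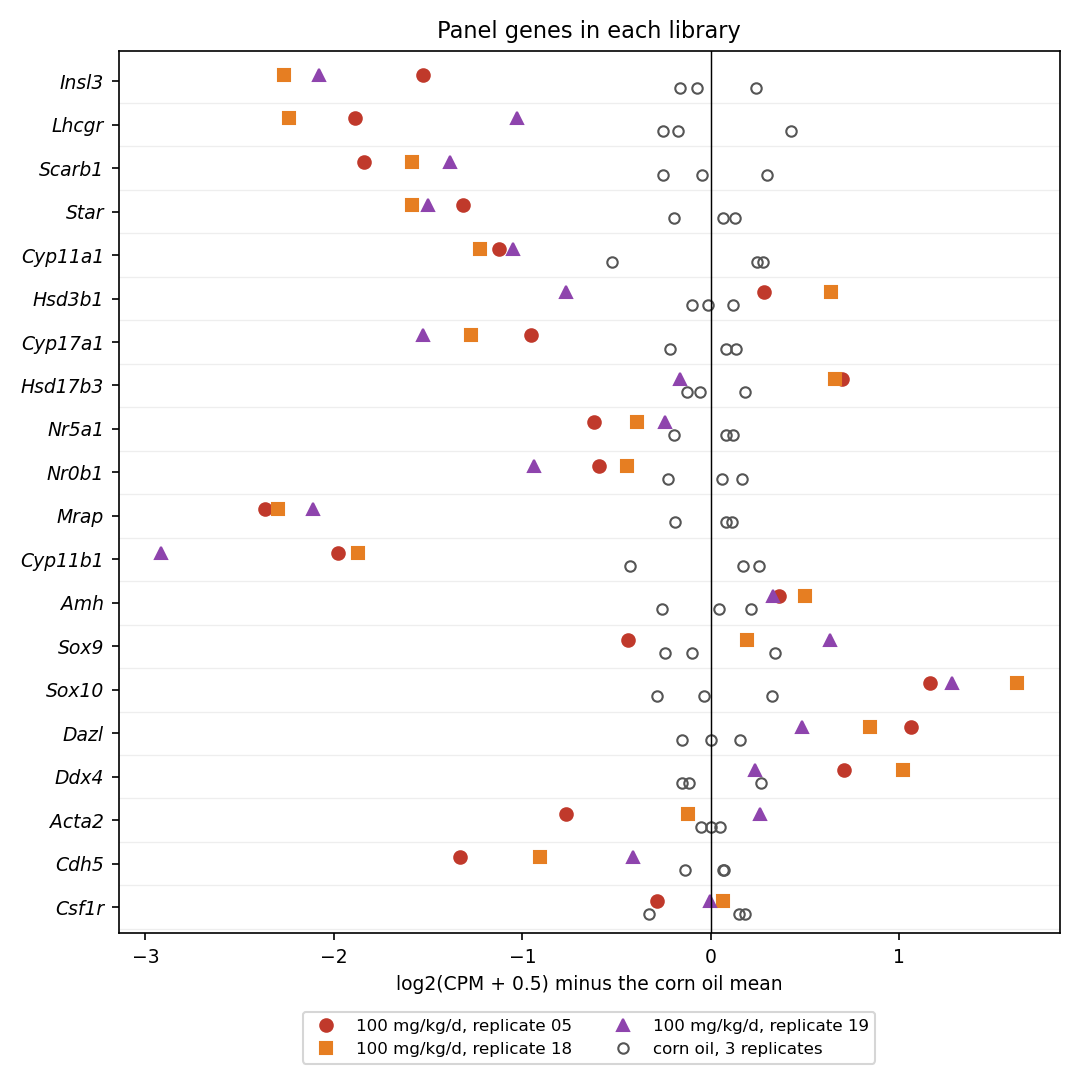
Log2(CPM + 0.5) minus the corn oil mean (horizontal) for 20 panel genes (vertical), with the 3 libraries at 100 mg/kg/d as filled symbols in the upper row of each gene and the 3 corn oil libraries as open circles in the lower row. All 3 exposed libraries lie left of corn oil for Insl3, Lhcgr, Scarb1, Star, Cyp17a1, Mrap and Cyp11b1, whereas those of Hsd3b1 lie on both sides.

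The sample titles carry a code (S446, S447 or S448) whose meaning the labels do not state. Corn oil replicate 08 was the only library of this comparison with S446. Within S447, the mean of replicates 05 and 19 minus corn oil replicate 15 was -2.04 for Insl3, -1.54 for Star, -1.56 for Scarb1 and -1.32 for Cyp17a1 on the log2(CPM + 0.5) scale. Within S448, replicate 18 minus corn oil replicate 01 gave -2.19 for Insl3, -1.39 for Star, -1.89 for Scarb1 and -1.41 for Cyp17a1. The direction was the same within both codes for these 4 genes. This had to be so, because each exposed library lay below every corn oil library for each of them, so it is no separate support. For Hsd3b1 it was not, with -0.36 within S447 and 0.65 within S448. With the code as a term in the fit, 173 of the 274 calls were kept and 101 were lost.

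Among 28 transcription factors of steroidogenic cells, 3 fell and 0 rose, against 1.03% and 0.494% of all genes. Nr5a1 itself was not among them, with 142, 167 and 185 CPM at 100 mg/kg/d, against 238, 191.5 and 232 CPM in corn oil (log2 fold change -0.42 with SE 0.131, adjusted p = 0.106), although the groups did not overlap. Nr0b1, an X-linked nuclear receptor that represses Nr5a1 activity, had 35.8, 39.8 and 28.1 CPM at 100 mg/kg/d, against 56.6, 46.4 and 61.1 CPM in corn oil (log2 fold change -0.66, adjusted p = 0.0244). Cebpb, a basic leucine zipper factor, was 1.69-fold lower (adjusted p = 0.0106), and Cited2, a transcriptional coregulator, was 1.54-fold lower (adjusted p = 0.0472). With replicates 05 and 18 left out, 1 factor was called lower and 1 higher. Factors called lower numbered 1 without replicate 05, 2 without replicate 18, and 1, 2 and 0 without corn oil replicates 01, 08 and 15, and 13 (with 1 higher) without replicate 19.

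Mrap and Cyp11b1, better known from the adrenal cortex, were among the steepest falls. Of 8 adrenal-type genes tested, 3 fell and 0 rose, against 1.03% and 0.494% of all genes. The list was divided, with 4 values above 0 and 4 below, and a median log2 fold change of -0.22. Mrap, the accessory protein of the corticotropin receptor, had 2.28, 2.42 and 2.82 CPM at 100 mg/kg/d, against 14.7, 12.1 and 14.99 CPM in corn oil. The exposed libraries nearly coincided, and the log2 fold change was -2.47 (adjusted p = 4.16e-06, SE 0.214), which is 5.55-fold lower. Cyp11b1, which completes corticosterone synthesis in the rat adrenal, had 2.59, 2.83 and 1.11 CPM at 100 mg/kg/d, against 13.2, 8.54 and 14.1 CPM in corn oil (log2 fold change -2.43 with SE 0.394, adjusted p = 0.0025). It has near-identical paralogs, so its count is uncertain. Dlk1, a membrane protein of the interstitium and adrenal, had 436, 519 and 589.8 CPM at 100 mg/kg/d, against 794, 764 and 794 CPM in corn oil (log2 fold change -0.61, adjusted p = 0.0214). Mrap and Cyp11b1 were called in all 16 alternatives and Dlk1 in 9.

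Lipid synthesis showed smaller falls, where 1.03% of all genes fell and 0.494% rose. Of 15 genes of fatty acid synthesis, 4 fell and 0 rose, and no member was called without replicates 05 and 18 or without replicate 18 alone. The number was 1 without corn oil replicate 01 or 15, 2 without corn oil replicate 08 or replicate 05, and 6 without replicate 19. Me1, the malic enzyme that supplies NADPH, had 192, 223 and 210 CPM at 100 mg/kg/d, against 337, 326 and 321 CPM in corn oil (log2 fold change -0.65, adjusted p = 0.0314). Acss2, which makes acetyl-CoA from acetate, changed by -0.71 (adjusted p = 0.0176) but overlaps Gss. Elovl5, a fatty acid elongase, changed by -0.49 (adjusted p = 0.0107), and Fads1, a desaturase, by -0.54 (adjusted p = 0.0331). Of 23 cholesterol synthesis genes, 1 fell. The list as a whole had 21 of 23 values below 0 and a median of -0.31, with per-library medians of -0.365, -0.231 and -0.594. Replicate 19 was the lowest here, and without replicates 05 and 18 there were 4 members called lower. Of 25 PPAR targets and genes of fatty acid oxidation, 0 were called by edgeR. In this list 5 had an unadjusted p under 0.05, DESeq2 called 2 and limma 4, against 3458, 904 and 4457 of all 18005 genes.

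The steepest called fall among genes above 1 CPM was that of Gsta2, a glutathione transferase that conjugates electrophiles and has steroid isomerase activity in its family. It had 0.678, 0.3601 and 0.197 CPM at 100 mg/kg/d, against 25.6, 10.6 and 13.9 CPM in corn oil, a log2 fold change of -5.31 (adjusted p = 7.12e-06, SE 0.505). Even the highest exposed library lay far below the lowest corn oil library. Gsta2 (chr8:79184322-79196798 on mRatBN7.2, minus strand) has near-identical relatives that can share its reads. It was the only 1 of 22 glutathione transferases called. Vnn3, of the pantetheinase family, had 0.246, 0.206 and 0 CPM at 100 mg/kg/d, against 3.55, 2.57 and 1.98 CPM in corn oil (adjusted p = 0.000851), with no read in replicate 19. Olfm2, a secreted olfactomedin glycoprotein, had 1.602, 1.54 and 1.31 CPM at 100 mg/kg/d, against 12.5, 8.66 and 11.7 CPM in corn oil. It was 7.38-fold lower (SE of the log2 fold change 0.254, adjusted p = 4.16e-06) and the 3 exposed libraries were nearly equal. Gpr55, a lipid-activated G protein-coupled receptor, was 9.38-fold lower (adjusted p = 0.00233). B3galt5, a galactosyltransferase, was 5.53-fold lower (adjusted p = 0.000333), and Prmt8, an arginine methyltransferase, was 4.39-fold lower (adjusted p = 0.00176). Slc7a8, a transporter of neutral amino acids, was expressed at a higher level, with 19.2, 11.5 and 36.9 CPM at 100 mg/kg/d, against 122, 81.2 and 87.1 CPM in corn oil (log2 fold change -2.11 with SE 0.271, adjusted p = 0.000235). Aox1, an aldehyde oxidase, had 5.79, 5.298 and 7.28 CPM at 100 mg/kg/d, against 28.2, 13.6 and 23.2 CPM in corn oil (log2 fold change -1.82, adjusted p = 0.000168). Naglu, a lysosomal glucosaminidase, was 3.62-fold lower (adjusted p = 0.0122), but corn oil replicate 01 alone reached 169 CPM. The other genes in the 20 steepest falls were Znf750, Fcer2, Spint3, Alpp, Aadat and Osgin1, between 3.51-fold and 7.15-fold lower. Sod3, the extracellular superoxide dismutase, was the 1 of 21 genes of antioxidant defence called, at -0.82 (adjusted p = 0.00343).

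Several secreted proteins changed in opposite directions. Lefty2, an inhibitor of Nodal signalling, had 1.11, 1.24 and 0.394 CPM at 100 mg/kg/d, against 4.88, 4.86 and 4.15 CPM in corn oil (log2 fold change -2.31, adjusted p = 0.00247). Inha, the inhibin alpha subunit made by Sertoli and Leydig cells, had 444.5, 523 and 356 CPM at 100 mg/kg/d, against 913, 654 and 906 CPM in corn oil (log2 fold change -0.90, adjusted p = 0.01), and it overlaps Tmem198; the call was lost without corn oil replicate 01 or 15. Of 35 genes of Nodal, activin, BMP and TGF-beta signals, these 2 fell and 0 rose, against 1.03% and 0.494% of all genes. Stc2, a stanniocalcin, had 31.1, 35.1 and 43.3 CPM at 100 mg/kg/d, against 116, 102 and 108 CPM in corn oil (log2 fold change -1.58 with SE 0.158, adjusted p = 1.36e-05). Its relative Stc1 rose, with 11.96, 13.9 and 22.5 CPM at 100 mg/kg/d, against 7.79, 5.81 and 5.95 CPM in corn oil (log2 fold change 1.30, adjusted p = 0.0122). The call of Stc1 was lost without corn oil replicate 08 or 15. Penk, the precursor of enkephalins, was 1.93-fold lower (adjusted p = 0.0139), and it overlaps Sdr16c6. Lcn2, a binding protein of iron siderophores, rose to 39.1, 85.7 and 26.2 CPM at 100 mg/kg/d, against 11.6, 22.7 and 13.9 CPM in corn oil. Replicate 18 was the highest, and the call was lost without it or without corn oil replicate 01 or 15. Svs5, a seminal vesicle secretory protein, fell to 35.6, 79.8 and 17.8 CPM at 100 mg/kg/d, against 268, 126.5 and 178 CPM in corn oil (log2 fold change -2.10 with SE 0.491, adjusted p = 0.035), with a wide spread in both groups, and was not called without replicate 05 or without corn oil replicate 01 or 15. Cpa1 encodes a digestive carboxypeptidase. It had 384.5, 257 and 498 CPM at 100 mg/kg/d, against 1037, 718 and 874 CPM in corn oil (log2 fold change -1.21 with SE 0.275, adjusted p = 0.0299). The call was lost without replicate 05 or 18, or without corn oil replicate 01 or 15, and without replicates 05 and 18 together the value was -0.83.

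The rises included 3 collagen genes, while most matrix genes had values below 0. Of 35 collagen, laminin and matrix genes tested, 28 had a value below 0, the median log2 fold change was -0.26, 1 rose (Col9a3) and 1 fell. Without replicate 19, 2 were called higher and 19 lower. Col2a1 and Col9a1 are not on that list and were named for their own calls. Col2a1, the main collagen of cartilage, had 28.4, 42.5 and 34.2 CPM at 100 mg/kg/d, against 13.99, 15.4 and 15.9 CPM in corn oil. The corn oil libraries were within 2 CPM of each other, and the log2 fold change was 1.22 (adjusted p = 0.00196, SE 0.19). Col9a3, a chain of type IX collagen, had 72.9, 77.7 and 50.4 CPM at 100 mg/kg/d, against 30.96, 31.8 and 38.04 CPM in corn oil (log2 fold change 1.00, adjusted p = 0.0028), and Col9a1, another chain, was 1.8-fold higher (adjusted p = 0.0387). Sox10, a transcription factor related to Sox9, had 4.499, 6.38 and 4.92 CPM at 100 mg/kg/d, against 1.33, 2.29 and 1.67 CPM in corn oil (log2 fold change 1.57 with SE 0.322, adjusted p = 0.0153). It was the 1 of 16 SOX factors called. Sox9, which directs Sertoli cell fate, had 34.5, 53.6 and 72.9 CPM at 100 mg/kg/d, against 59.5, 43.8 and 39.6 CPM in corn oil, with the exposed libraries on both sides of corn oil (log2 fold change 0.17, adjusted p = 0.652). RGD1311744, an entry known here only by its symbol, had 264, 120.3 and 124 CPM at 100 mg/kg/d, against 56.5, 46.1 and 49.4 CPM in corn oil (log2 fold change 1.74 with SE 0.273, adjusted p = 0.00197). Testin, a secretory protein of rat Sertoli cells, was 3.02-fold higher (adjusted p = 0.00142), and C4a, a complement component, 2.33-fold higher (adjusted p = 0.0192). Cldn2, a tight junction protein, and Otos had the steepest named rises, 4.297-fold and 3.82-fold, with corn oil means under 1 CPM. Sox10 was not called without replicate 18 or without corn oil replicate 01 or 15. Col9a1 lost its call when any 1 of the 6 libraries but replicate 19 was left out, and Cldn2 without replicate 18 or any 1 corn oil library.

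Of 23 Sertoli cell markers, 2 fell (Inha and Nr0b1, both of which Leydig cells also express) and 0 rose. Neither was called without corn oil replicate 01 or 15. Without replicate 19 there were 5 markers called higher and 2 lower, against 2206 higher and 2044 lower of 18316 genes. Amh, the Sertoli cell hormone that removes the Müllerian ducts, had 1811, 1989 and 1774 CPM at 100 mg/kg/d, against 1634, 1177 and 1453 CPM in corn oil. All exposed libraries were above corn oil, but the log2 fold change of 0.39 (SE 0.203) did not pass the test (adjusted p = 0.303).

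The germ cell genes called at 100 mg/kg/d all rose. Of 28 gonocyte and germ cell markers, 4 rose and 0 fell, and the median log2 fold change was 0.42, with per-library medians of 0.265, 0.644 and 0.263. Dazl, an RNA-binding protein of germ cells, had 54.3, 46.6 and 36.2 CPM at 100 mg/kg/d, against 23.1, 25.7 and 28.7 CPM in corn oil (log2 fold change 0.82 with SE 0.161, adjusted p = 0.0109). Rbmy1j, a Y-linked RNA-binding protein of germ cells, had 16.8, 14.8 and 9.38 CPM at 100 mg/kg/d, against 6.27, 7.59 and 5.95 CPM in corn oil (adjusted p = 0.013). Tfap2c, a transcription factor of early germ cells, was 2.19-fold higher (adjusted p = 0.0379). Sycp3, a protein of the meiotic chromosome axis, had 43.6, 50.7 and 23.9 CPM at 100 mg/kg/d, against 17.2, 24.7 and 24.8 CPM in corn oil (adjusted p = 0.0472), with replicate 19 inside the corn oil range, and it overlaps Chpt1. Ddx4, the germ cell helicase, had 94.8, 118 and 68.2 CPM at 100 mg/kg/d, against 51.98, 69.9 and 53.5 CPM in corn oil, and was not called (log2 fold change 0.68, adjusted p = 0.0733). Of 23 genes of the piRNA pathway, which silences transposons in germ cells, 2 rose and 0 fell. These were Tdrd12, a tudor domain protein, at 0.83 (adjusted p = 0.0299), and Gpat2, an acyltransferase of mitochondria, at 0.69 (adjusted p = 0.0297), which overlaps Fahd2a. No member of either list was called without replicates 05 and 18, and without replicate 19 there were 12 germ cell markers called higher and 1 lower, and 10 piRNA genes called higher. Among germ cell markers, 0 were called without replicate 18 or without corn oil replicate 01, 1 without replicate 05 or without corn oil replicate 15, and 2 without corn oil replicate 08. Of the piRNA genes, 0 were called when replicate 05 or 18, or corn oil replicate 01 or 15, was left out, and 4 with the sample code as a term. Per-library medians of the piRNA genes were 0.23, 0.606 and 0.35, and in both lists replicate 19 had a median close to or above that of replicate 05. Dazl was not called when replicate 05, replicate 18 or corn oil replicate 01 was left out, and Rbmy1j also not without corn oil replicate 15. Calls in both lists thus depended on libraries of both groups.

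The rises also included many X-linked genes. On chromosome X lay 17 of the 89 genes that rose (19.1%) and 7 of the 185 that fell (3.78%), where 3.89% of all genes tested are X-linked. Of the 10 rises in which replicate 19 lay within the corn oil range, 6 were X-linked. Nxf2, an mRNA export factor of germ cells, had 191, 185 and 100 CPM at 100 mg/kg/d, against 82.3, 104 and 88.1 CPM in corn oil. Fmr1nb had 11.5, 10.5 and 5.38 CPM at 100 mg/kg/d, against 2.85, 5.42 and 3.72 CPM in corn oil. The Magea genes form a family expressed in male germ cells. Magea4 was 2.19-fold higher (adjusted p = 0.00583), Magea9 2.099-fold (adjusted p = 0.0118) and Magea10 2.32-fold (adjusted p = 0.0399), and reads may be split among such relatives. Of 81 cytosolic ribosomal protein genes, 76 had a value above 0 and 1 (1.23%) rose, against 0.494% of all genes. Without replicate 19, 62 of them were called higher and 1 lower, DESeq2 called 13 higher, limma called 57 higher and 1 lower, and edgeR called 0 without replicate 18 or corn oil replicate 01. The 1 that rose was Rpl39l, a ribosomal protein gene of male germ cells, with 66.4, 67.3 and 40.8 CPM at 100 mg/kg/d, against 26.7, 36.1 and 30.5 CPM in corn oil (log2 fold change 0.91, adjusted p = 0.00599).

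**Figure D3:**
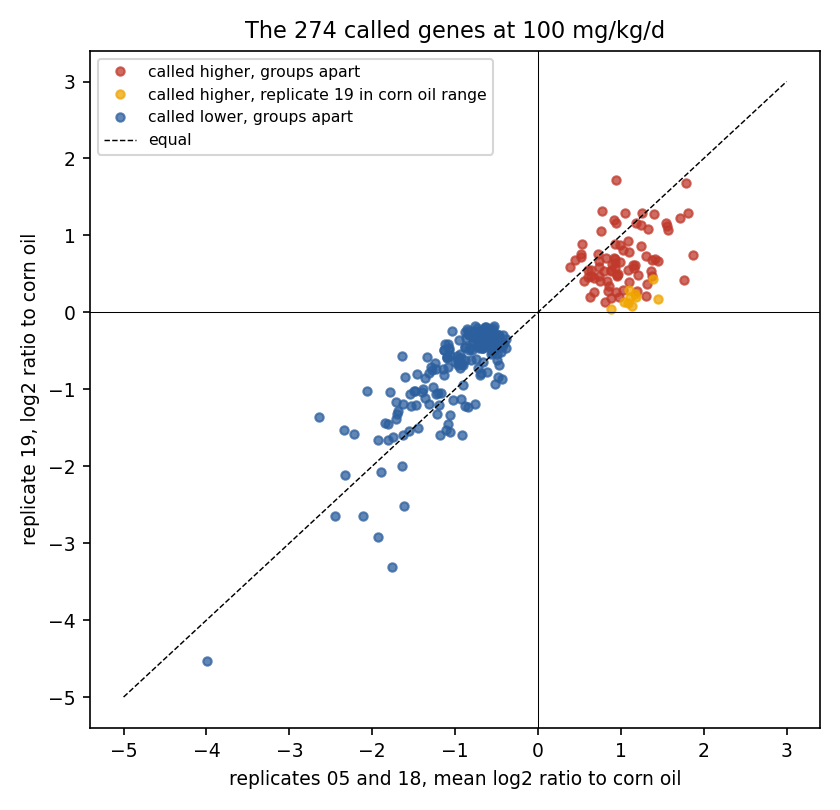
Log2 ratio to the corn oil mean in replicate 19 (vertical) against the mean of replicates 05 and 18 (horizontal) for the 274 called genes, with the line of equal values dashed. The 185 genes that fell and 79 of those that rose lie apart from corn oil in all 3 libraries, and the 10 orange genes have replicate 19 within the corn oil range.

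Other cell types showed few calls but uneven libraries. Of 17 endothelial markers 1 fell, and the per-library medians were -0.948, -0.607 and -0.036. Cdh5, the cadherin of endothelial junctions, had 80.8, 109 and 153.5 CPM at 100 mg/kg/d, against 214, 214 and 186 CPM in corn oil (log2 fold change -0.84 with SE 0.185, adjusted p = 0.0238). Without replicates 05 and 18 its value was -0.43 (adjusted p = 0.317), and the call was lost when any single library but replicate 19 was left out, and with the sample code as a term. Without replicate 19, 13 endothelial markers were called lower and 1 higher, against 2044 lower and 2206 higher of 18316 genes. Of 22 interstitial fibroblast and progenitor markers 0 were called by edgeR (9 at an unadjusted p under 0.05, 4 by DESeq2, 12 by limma), with medians of -0.482, -0.272 and -0.032. Without replicate 19, 13 were called lower. The matrix gene that fell was Timp3, an inhibitor of matrix proteases, at -0.48 (adjusted p = 0.0417), and it overlaps Syn3. Its call was lost when any single library but replicate 19 was left out, and with the sample code as a term. Of 14 peritubular myoid and smooth muscle markers 0 were called by edgeR, DESeq2 or limma, and 0 had an unadjusted p under 0.05. Acta2, smooth muscle actin, had 271, 425 and 554.5 CPM at 100 mg/kg/d, against 478, 462.5 and 445 CPM in corn oil. Of 18 macrophage markers 0 were called by edgeR (3 at an unadjusted p under 0.05, 0 by DESeq2, 3 by limma), and Csf1r, the receptor of their growth factor, had 24.2, 30.9 and 29.5 CPM at 100 mg/kg/d, against 33.6, 32.8 and 23.4 CPM in corn oil. Red blood cell markers were higher in all 3 exposed libraries as a sum over 18 genes, at 11600, 16970 and 14860 CPM, against 10550, 9102 and 10730 CPM in corn oil, and 0 of 16 tested were called by edgeR (4 at an unadjusted p under 0.05, 0 by DESeq2, 4 by limma). The nuclear genes of oxidative phosphorylation had medians of 0.553, 0.265 and -0.332, and those of the mitochondrial genome 0.734, 0.381 and -0.287, with 0 called by edgeR in either list. At an unadjusted p under 0.05 there were 8 in each, and limma called 38 of 73 and 12 of 30, DESeq2 1 and 0. Over all 18005 genes, 3458 had an unadjusted p under 0.05, DESeq2 called 904 and limma 4457. The list counts by these measures in this paragraph are to be read beside those numbers.

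**Figure D4:**
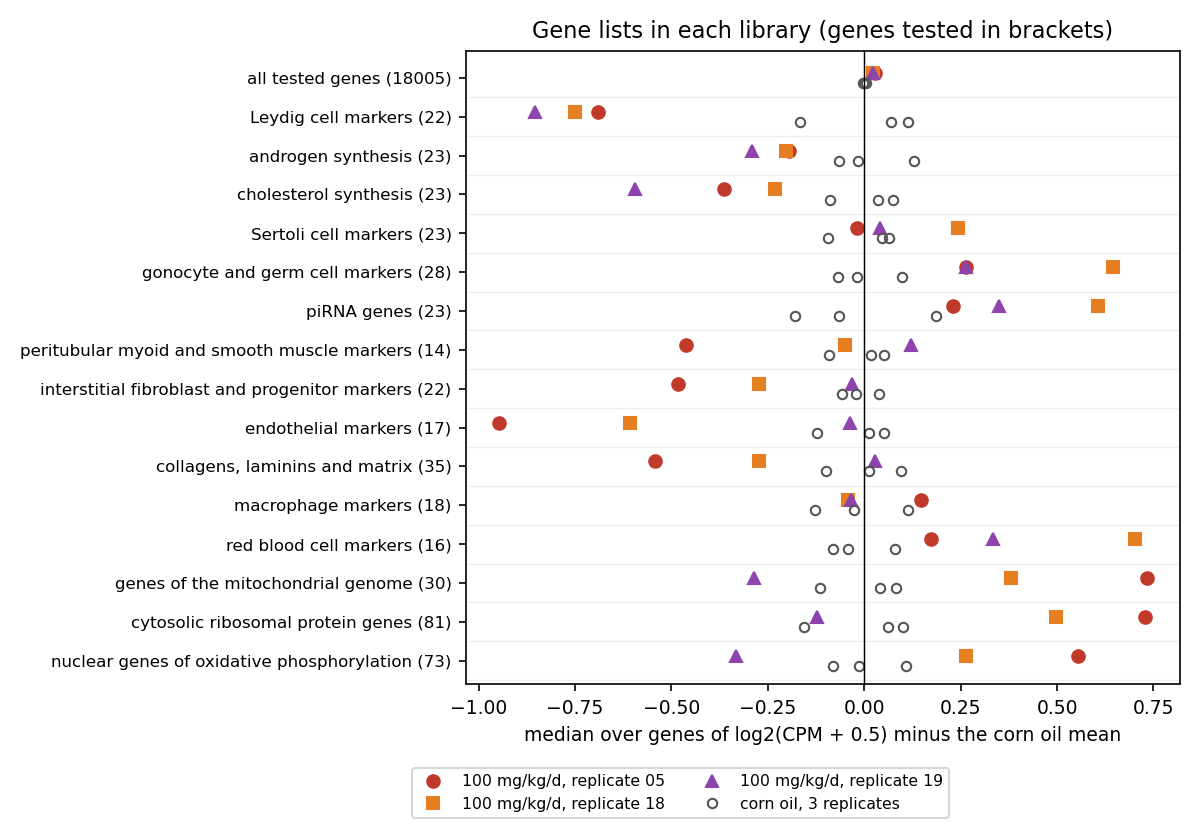
Median over the tested genes of a list of log2(CPM + 0.5) minus the corn oil mean (horizontal) for 16 gene sets (vertical), with the 3 libraries at 100 mg/kg/d as filled symbols above the 3 corn oil libraries (open circles). Leydig cell markers lie between -0.69 and -0.85 in all 3 exposed libraries, while endothelial, ribosomal and mitochondrial genes differ between replicates 05 and 18 on one side and replicate 19 on the other.

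Among general cell functions, 3 of 30 cell cycle genes fell and 0 rose, against 1.03% and 0.494% of all genes. Aurka and Plk1, kinases of mitosis, changed by -0.47 and -0.44, and Rrm2, a subunit of ribonucleotide reductase, by -0.47. Aurka overlaps Fam210b. No gene of this list was called without replicate 18 or without any 1 of the corn oil libraries. Without replicate 05 or with the sample code as a term, 1 was called lower. Without replicate 19, 8 were called lower and 6 higher, against 2044 lower and 2206 higher of 18316 genes. Of 29 genes of hypoxia and glycolysis, 3 fell: Pfkp, a phosphofructokinase, at -0.72, Pgam1, a phosphoglycerate mutase, at -0.51, and P4ha1, a prolyl hydroxylase of collagen, at -0.45. Pgam1 overlaps Exosc1 and P4ha1 overlaps the entry U7. Of this list 0 were called without replicate 18 or corn oil replicate 15, 1 without replicate 05 or corn oil replicate 01, 2 without corn oil replicate 08, and 13 without replicate 19, all lower. Pmaip1, a target of p53 that promotes cell death, was the 1 of 22 genes of its list that rose (0.77, adjusted p = 0.043). Calr, a chaperone of the endoplasmic reticulum, was the 1 of 20 heat shock and unfolded protein genes called (-0.42, adjusted p = 0.0481), and Dhrs3, a retinaldehyde reductase, the 1 of 20 retinoid genes (-0.71, adjusted p = 0.036). Pmaip1 and Dhrs3 lost their call when any 1 of the 6 libraries but replicate 19 was left out, and Calr without replicate 05 or 18 or corn oil replicate 01 or 15, and all 3 with the sample code as a term. No gene was called by edgeR in the lists of WNT and ovary genes (35), hedgehog signal (13), Notch signal (15), steroid hormone receptors (12), immediate early genes (26), interferon response (16), axon guidance (29) or liver-type plasma proteins (16). In each of these lists 0 to 10 genes had an unadjusted p under 0.05, DESeq2 called 0 to 2 and limma 0 to 10. For the 15 Notch genes these numbers were 7, 2 and 8. Over all 18005 genes they were 3458, 904 and 4457. Per-library medians of the Notch list were -0.526, -0.44 and 0.101. Without replicate 19, edgeR called 8 lower in each of the Notch and axon guidance lists. In that setting it called 6 lower among WNT and ovary genes, 3 lower each in the hedgehog and interferon lists, and 0 lower in the others.

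The genes least dependent on the analysis were nearly all falls. Under each of the 16 alternatives, including the one without replicates 05 and 18, 24 genes were called lower and 2 higher. The rises were Col2a1 and RGD1311744. The falls included Insl3, Star, Scarb1, Cyp17a1, Fdx1, Mrap, Cyp11b1, Gsta2, Vnn3, Olfm2, Lefty2, Slc7a8, Aox1 and Stc2, all described above. Of 109 called genes named by the rule or singled out, the call was lost for 43 without replicate 05, 60 without replicate 18, 0 without replicate 19, and 58, 30 and 57 without corn oil replicates 01, 08 and 15. The call was lost for 78 without replicates 05 and 18 together, 73 with only the 2 groups in the fit and 33 with the sample code as a term. Entpd5, an endoplasmic reticulum nucleotidase, had 20.03, 20.2 and 27.8 CPM at 100 mg/kg/d, against 57.1, 53.7 and 60.2 CPM in corn oil (adjusted p = 7.12e-06), although it overlaps Coq6. Acad10, of the acyl-CoA dehydrogenase family, had 98.4, 110.1 and 176 CPM at 100 mg/kg/d, against 342, 346 and 398 CPM in corn oil (adjusted p = 0.00015). Aldh1l1, an enzyme of folate metabolism, had 15.5, 12.7 and 19.9 CPM at 100 mg/kg/d, against 52.5, 37.4 and 37.7 CPM in corn oil (adjusted p = 7.23e-05). The other 7 were singled out after their values were seen. Ddit4, an inhibitor of mTOR signalling, had 40.98, 48.4 and 61.98 CPM at 100 mg/kg/d, against 119.6, 118 and 143 CPM in corn oil. Pdyn, the precursor of dynorphins, had 21.6, 18.1 and 13.9 CPM at 100 mg/kg/d, against 51.1, 36.4 and 39.5 CPM in corn oil. Gpc4, a glypican of the cell surface, was 2.27-fold lower, Bhmt, which methylates homocysteine, 2.15-fold, Dnm3, a dynamin, 2.65-fold, Glmp, a lysosomal membrane protein, 2.09-fold, and Aebp1, a matrix protein, 1.999-fold.

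The neighbouring doses place these levels. Comparisons with 300 and with 11 mg/kg/d share the 3 libraries at 100 mg/kg/d with the comparison above. At 300 mg/kg/d against 100 mg/kg/d, 1 of 18005 genes (0.00555%) was called, while 4362 had an unadjusted p under 0.05. It was Cpe, the carboxypeptidase that trims prohormones, with 33.7 ± 3.53 CPM at 300 mg/kg/d (SD, n = 5), against 15.8 ± 2.75 CPM at 100 mg/kg/d (SD, n = 3). The log2 difference was 1.09 (SE 0.154, adjusted p = 0.0143). No gene was called without replicate 05, and 5872 were called without replicate 19. At 100 mg/kg/d against 11 mg/kg/d, 854 genes (4.74%) were called, 467 higher and 387 lower, but 0 without replicate 18 and 5886 without replicate 19. Mrap had 2.51 ± 0.281 CPM at 100 mg/kg/d, against 6.24 ± 0.571 CPM at 11 mg/kg/d (SD, n = 3 each), a log2 difference of -1.32 (SE 0.216, adjusted p = 0.00975). Scarb1 had 333 ± 52.4 CPM at 100 mg/kg/d, against 704.5 ± 115 CPM at 11 mg/kg/d (SD, n = 3 each), a log2 difference of -1.08 (SE 0.195, adjusted p = 0.0171). Cyp17a1 had 636 ± 127 CPM at 100 mg/kg/d, against 759 ± 65.2 CPM at 11 mg/kg/d (SD, n = 3 each), which did not pass the test (log2 difference -0.25, adjusted p = 0.432). Dazl averaged 31.9 ± 3.46 CPM at 300 mg/kg/d (SD, n = 5), against 45.7 ± 9.08 CPM at 100 mg/kg/d (SD, n = 3), a log2 difference of -0.52 that was not called (adjusted p = 0.0899).

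**Figure D5:**
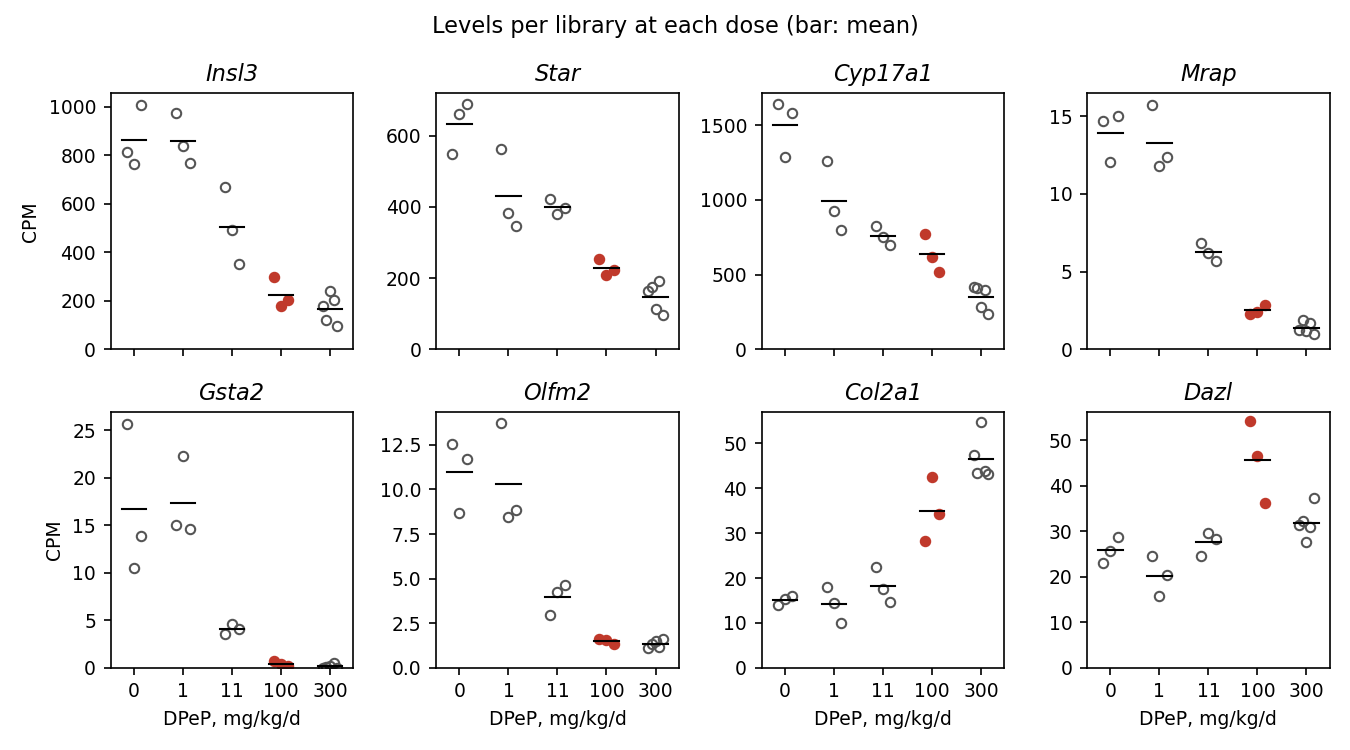
CPM (vertical) of 8 genes in all 17 libraries by dose in mg/kg/d (horizontal, 0 is corn oil), with 100 mg/kg/d as filled points and a bar at each mean. Insl3, Star, Mrap, Gsta2 and Olfm2 are lower at 100 than at 11 mg/kg/d in every library, Col2a1 is higher, and Dazl has its highest mean at 100 mg/kg/d.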

How the data were processed

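Per the file headers, the authors deposited raw read counts per gene on mRatBN7.2, for RNA made with a polyA kit that does not mark strand. The submitters' processing notes name Trimmomatic 0.36, STAR 2.5.2b and featureCounts of Subread 1.5.2. Each identifier was kept once and 92 spike-in rows were dropped, leaving 30560 genes, with 14781634 to 20323488 reads in the 6 libraries compared. One fit of edgeR 4.0.16 (R 4.3.3) over the 5 dose groups used TMM scaling, filterByExpr and the quasi-likelihood F test, and its adjusted p-values are those printed. A standard error (SE) was obtained by dividing a gene's absolute log2 fold change by √F. Alternatives were run with DESeq2 1.42.0 and limma 3.58.1 and by other filters, scalings and sets of libraries. On simulated data for this comparison (17540 genes), 31.3%, 74.6% and 93.9% of genes changed by 1.5-fold, 2-fold and 4-fold were recovered. The simulation gave each gene 1 dispersion for all groups, and 9 genes that had not been changed were called. The real libraries at 100 mg/kg/d varied more than the other groups (0.233 against 0.116 to 0.134). Recovery in the real data may therefore be lower.

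The 41 lists and the naming rule were chosen with earlier results of these data known. The rule names 20 panel genes, up to 5 called members per list, the 20 steepest changes each way among called genes with a mean of at least 1 CPM and no overlap, the 10 called genes highest in CPM, and the 10 highest in which replicate 19 lies within the corn oil range. It also names members of lists without a call and genes called between doses. These, and some of the other genes it names, are given only as counts or left out. Some called genes are not reported here by name and enter only the counts.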

Additional observations from a re-analysis of the deposited data

Results flagged for a closer look

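Cpe, the carboxypeptidase that trims prohormones, differed between 2 dose groups in the test of the difference itself. Its log2 difference at 300 mg/kg/d minus 100 mg/kg/d was 1.093 (adjusted p = 0.0143 in edgeR's quasi-likelihood test, n = 5 and 3). It was the only gene so called, and against corn oil its value at 100 mg/kg/d was 0.36 (adjusted p = 0.258). The call was lost without replicate 05 at 100 mg/kg/d and without replicate 14 or 20 at 300 mg/kg/d. It was also lost with only the 2 groups in the fit and with the sample code as a term.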

How the results depend on the processing

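No paired analysis was possible because the groups compared share no replicate numbers. The cause of each change below was not tested. At 100 mg/kg/d against corn oil, the 274 calls (89 higher, 185 lower) became 904 (336 and 568) with DESeq2, 4457 (2361 and 2096) with limma voom and quality weights, 45 (4 and 41) with only the 2 groups in the fit, where fewer libraries give the spread, and 73 (13 and 60) without replicates 05 and 18 together. Higher calls were 140 with no filter and 53 with the sample code as a term, and lower calls were 279 with mitochondrial and ribosomal protein genes left out. Leaving out each library in turn gave 93 to 4250 calls, 11 to 2206 higher and 80 to 2044 lower. With voom weights, replicate 18 counted for 3.35 and replicates 05 and 19 for 0.353 and 0.203. For 300 against 100 mg/kg/d, the 1 call became 225 with no filter, 1310 with DESeq2, 6571 with voom, and 0 with only the 2 groups, with the sample code as a term and without replicates 05 and 18, with 0 to 5872 when each library was left out. For 100 against 11 mg/kg/d, the 854 calls became 2215 with DESeq2, 6351 with voom, 2 with only the 2 groups, 163 with the sample code as a term and 0 without replicates 05 and 18, with 0 to 5886 when each library was left out. Of 109 called genes named by the rule or singled out, 26 kept their call in all 16 alternatives and 0 reversed. Reversals fell on uncalled genes. Csf1r was 0.004 with voom and -0.235 to 0.002 when each library was left out. Acta2 was 0.246 without replicates 05 and 18, and -0.412 to 0.067 when each library was left out. Hsd3b1 was -0.791 without replicates 05 and 18, and -0.165 to 0.465 when each library was left out. Hsd17b3 was -0.189 without replicates 05 and 18, and Sox9 was -0.112 to 0.392 when each library was left out.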
